A study of Mus musculus with 10 samples.

Results

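Across 10 mice, 10 genes of the intestinal crypt were followed through RNA sequencing of mouse jejunum: the crypt base columnar stem cell genes Lgr5, Ascl2, Olfm4 and Smoc2, the Wnt feedback genes Axin2, Rnf43 and Znrf3, and the stem and progenitor genes Sox9, Prom1 and Msi1. They were taken by gene symbol and are 10 of the 45707 rows of the deposited table. The table compares 5 Vil-Cre with 5 Vil-Cre:NDI1 male littermates, 1 library per mouse, and asks whether the transgene alters the jejunal transcriptome. NDI1 is a yeast NADH dehydrogenase that can stand in for mitochondrial complex I. In Vil-Cre:NDI1 mice it sits behind a lox-stop-lox sequence at the ROSA26 locus and is switched on by Cre under the Villin promoter, so that it is made in intestinal epithelial cells. Both groups carried Vil-Cre from a parent with 2 copies, and the controls were the littermates that had not inherited NDI1 from the other parent. All 10 mice were fasted overnight, received water by gavage and had the flushed jejunum taken an hour later as whole tissue, muscle and stroma included. Their age lay between 8 and 12 weeks.

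Crypt base columnar cells at the crypt floor renew the intestinal epithelium and depend on Wnt signals from their surroundings. Wnt ligands bind Frizzled and Lrp receptors, which stabilizes beta-catenin and turns on target genes with TCF/LEF factors. R-spondins bind Lgr receptors and draw away Rnf43 and Znrf3, ubiquitin ligases that otherwise remove Frizzled from the cell surface, while Axin2 rebuilds the complex that destroys beta-catenin. Several Wnt targets are thus also brakes on the pathway.

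All 10 genes were detected in all 10 mice, and all 10 passed the filter of at least 10 normalized counts in at least 5 mice, which 14301 genes passed. Normalized counts are reads divided by a size factor for each library. Depth was 10145705 to 11648074 reads on genes for Vil-Cre and 10313793 to 12371530 for Vil-Cre:NDI1 mice. NDI1 itself had at most 1 read in any Vil-Cre library and 1002 to 2659 reads in the Vil-Cre:NDI1 libraries, which matched every label (log2 fold change 10.34 ± 0.29, limma adjusted p = 7.14e-09). The lowest count among the members was 14 reads, for Ascl2 in Vil-Cre:NDI1 mouse 3.

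The promoters of Ascl2, Olfm4, Axin2, Rnf43 and Prom1 were matched in the RefSeq tables (GRCm38.p6), 5 of the 10 genes. The 250 bases before the start are shown for the stem cell gene of the highest level per exon length, for the gene most used as a readout of Wnt signalling and for the gene with the largest genotype difference, in order Olfm4 (chr14:80000052-80000301, plus strand), Axin2 (chr11:108920099-108920348, plus strand) and the first of 2 starts of Rnf43 (chr11:87662837-87663086, plus strand). Capitals mark CG dinucleotides and, in Olfm4, a TATAA that begins 32 bases before the start.
Olfm4: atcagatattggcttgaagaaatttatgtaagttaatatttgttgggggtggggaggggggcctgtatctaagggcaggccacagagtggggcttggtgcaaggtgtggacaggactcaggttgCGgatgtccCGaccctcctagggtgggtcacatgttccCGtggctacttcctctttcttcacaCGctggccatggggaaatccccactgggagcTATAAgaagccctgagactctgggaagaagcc
Axin2: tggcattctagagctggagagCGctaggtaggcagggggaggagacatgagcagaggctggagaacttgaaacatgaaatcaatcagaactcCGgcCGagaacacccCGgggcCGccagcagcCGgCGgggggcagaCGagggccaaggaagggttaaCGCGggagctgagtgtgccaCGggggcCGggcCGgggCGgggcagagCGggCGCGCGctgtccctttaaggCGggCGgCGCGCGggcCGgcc
Rnf43: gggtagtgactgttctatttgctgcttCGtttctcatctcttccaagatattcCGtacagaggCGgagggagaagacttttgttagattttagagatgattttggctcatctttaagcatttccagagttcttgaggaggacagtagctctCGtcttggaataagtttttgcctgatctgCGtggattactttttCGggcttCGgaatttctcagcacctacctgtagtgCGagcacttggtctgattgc
The Olfm4 window held 4 CG dinucleotides and was 54% GC, the Axin2 window held 24 and was 69.2% GC, and the Rnf43 window held 8 and was 44.4% GC. Over all 32851 promoters of the table the median was 6 CG dinucleotides, with quartiles of 2 and 16, and 3.52% had TATAA on the gene's strand between 40 and 15 bases before the start. None of the 7 windows of the 5 genes held the TCF/LEF word CTTTG followed by AA, AT, TA or TT, or the E-box CAGCTG that Ascl2 and its relatives can bind, on either strand. Those words were in 14.8% and 13.0% of all promoter windows of the same length. At such shares their absence from 7 windows cannot set these genes apart from other genes, and sites outside the 250 bases were not searched.

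**Figure D1:**
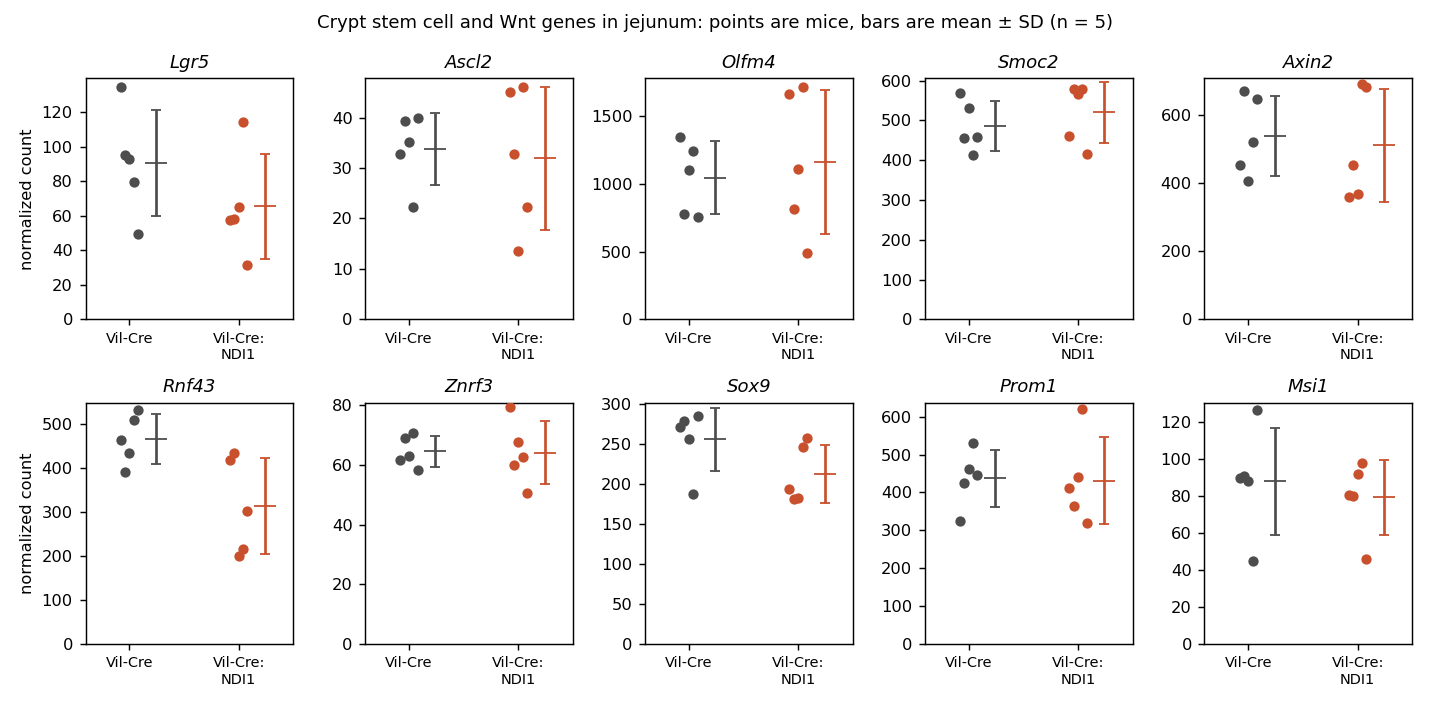
Normalized counts of the 10 genes in each mouse, 1 panel per gene, with the axis starting at 0, grey points for Vil-Cre, orange points for Vil-Cre:NDI1 and bars for the mean ± SD of 5 mice. The groups overlap in every panel, and Rnf43 shows the largest gap between means, with 3 of 5 Vil-Cre:NDI1 mice below all Vil-Cre mice.

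None of the 10 genes differed between the genotypes after adjustment over all 14301 genes (limma, adjusted p = 0.998 for each). By that test 0.00699% of all genes were called, which is NDI1 alone. DESeq2 on the reads recovered from the table called 0 of the 10, against 0.168% of all genes, and edgeR 0 of the 10, against 0.00699% of all genes. At an unadjusted p under 0.05 limma set apart 1 of the 10, Rnf43, against 4.24% of all genes in either direction and 2.11% for lower values in Vil-Cre:NDI1 mice. Rnf43 was also the only 1 of the 10 under that level by DESeq2 and by edgeR. The groups overlapped for all 10 genes, and 0.699% of all genes had groups that did not overlap. The log2 fold change was below 0 for 8 of the 10, against 48.8% of all genes, with a median of -0.12 against 0.0052. That median was -0.22 without Vil-Cre:NDI1 mouse 4 and -0.016 without Vil-Cre:NDI1 mouse 5, the ends of the range with 1 mouse left out. Of the 8, Lgr5, Rnf43 and Sox9 stayed below 0 under all the alternative settings, and the other 5 passed 0 under at least 1. The jejunum was sequenced as bulk tissue, so fewer cells of a type and less RNA per cell cannot be told apart.

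**Figure D2:**
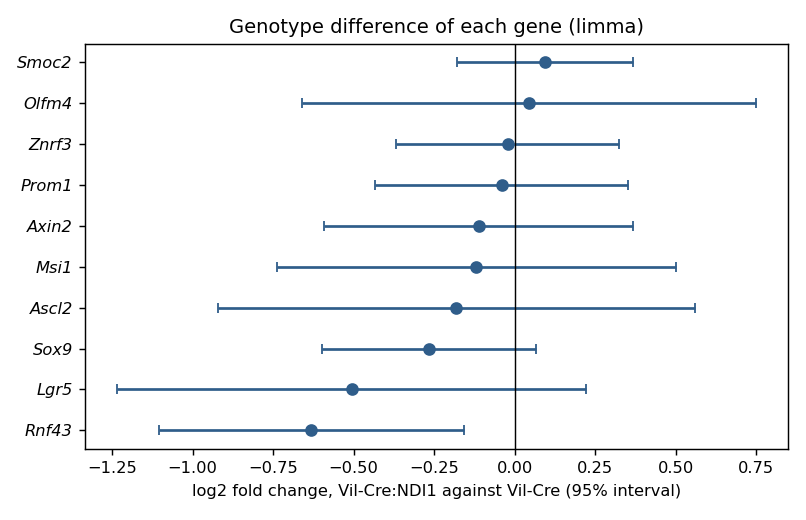
log2 fold change of each gene, Vil-Cre:NDI1 against Vil-Cre, on the log2(normalized count + 1) scale, with points for the limma estimate and bars for its 95% interval. The intervals of 9 genes span 0, and that of Rnf43 runs from -1.10 to -0.16 with no adjusted p under 0.05.

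Among the stem cell genes, Lgr5 codes for the R-spondin receptor that marks crypt base columnar cells (chr10:115450311-115587780, GRCm38). Its normalized counts were 135, 95.2, 93.2, 79.9 and 49.5 in Vil-Cre mice 1 to 5 and 57.8, 58.3, 64.9, 115 and 31.7 in Vil-Cre:NDI1 mice 1 to 5. In the Vil-Cre:NDI1 group mouse 4 stood above the rest, at a level that only Vil-Cre mouse 1 passed, and mouse 5 was the lowest of all 10. The means were 90.5 ± 30.7 in Vil-Cre and 65.5 ± 30.3 in Vil-Cre:NDI1 mice (SD, n = 5 each). The log2 fold change was -0.51 ± 0.33 (SE), with a 95% interval from -1.23 to 0.22, which corresponds to 0.425 to 1.17 times the Vil-Cre level, and the two-sided exact permutation test gave p = 0.198. Lgr5 also had the widest spread of the 10 genes, with a coefficient of variation of 40.5% over the 10 mice and a 4.25-fold distance from lowest to highest.

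Ascl2, a helix-loop-helix transcription factor that maintains crypt stem cells (chr7:142966829-142969264), had normalized counts of 32.7, 39.4, 35.1, 22.2 and 39.8 in Vil-Cre mice 1 to 5 and 45.1, 32.8, 13.6, 46.0 and 22.3 in Vil-Cre:NDI1 mice 1 to 5. Mice 1 and 4 of the Vil-Cre:NDI1 group were above every Vil-Cre mouse, and mouse 3 of that group was below every one. The genotype difference on the log2 scale was -0.18 ± 0.34 (SE), with an interval from -0.92 to 0.56 (exact permutation test, p = 0.667). Olfm4 codes for a secreted glycoprotein abundant at the crypt base (chr14:79984081-80023139). Its values were 1344, 777, 1102, 1243 and 755 in Vil-Cre mice 1 to 5 and 1659.5, 815, 1108, 1715 and 492 in Vil-Cre:NDI1 mice 1 to 5. The Vil-Cre:NDI1 values lay on both sides of the Vil-Cre range, with mice 1 and 4 above it and mouse 5 below it, and the SD was 531 against 268 in Vil-Cre mice. For Olfm4 the log2 fold change was 0.045 ± 0.32 (SE), with an interval from -0.66 to 0.75 (exact permutation test, p = 0.929). Its exons share 153 bases with those of the lincRNA gene Gm6999, which is listed at 0.

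Smoc2, a secreted calcium-binding matrix protein (chr17:14279506-14404790), had normalized counts of 568, 455, 531, 414 and 459 in Vil-Cre mice 1 to 5 and 462, 579, 565, 579 and 416 in Vil-Cre:NDI1 mice 1 to 5. The 10 mice stayed within a 1.40-fold range, and 2 Vil-Cre:NDI1 mice were above all Vil-Cre mice. Its log2 fold change was 0.095 ± 0.12 (SE), with an interval from -0.18 to 0.37 that limits the Vil-Cre:NDI1 level to 0.884 to 1.29 times the Vil-Cre level (exact permutation test, p = 0.437).

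Of the Wnt feedback genes, the Frizzled-removing ligase Rnf43 (chr11:87662722-87735539) had normalized counts of 463, 389.6, 433, 508 and 531 in Vil-Cre mice 1 to 5 and 417, 433, 200.4, 214 and 303 in Vil-Cre:NDI1 mice 1 to 5. Vil-Cre:NDI1 mice 3, 4 and 5 were below all 5 Vil-Cre mice, while mice 1 and 2 fell inside the Vil-Cre range. The means were 465 ± 56.9 in Vil-Cre and 313 ± 109 in Vil-Cre:NDI1 mice (SD, n = 5 each). The log2 fold change was -0.63 ± 0.22 (SE), with a 95% interval from -1.10 to -0.16, or 0.465 to 0.896 times the Vil-Cre level. limma gave an unadjusted p = 0.0133, which ranked 138 among the 14301 genes, and an adjusted p = 0.998. DESeq2 gave a log2 fold change of -0.57 with an adjusted p = 0.413, and edgeR an adjusted p = 0.997. The exact permutation test gave p = 0.0317 before adjustment, where the smallest p that 5 against 5 mice allow is 0.00794. That p rose to 0.0635 without Vil-Cre mouse 1, 0.0556 without mouse 3, 0.0714 without mouse 4 and 0.0714 without mouse 5, and lay between 0.0159 and 0.0476 with any of the other 6 mice left out. The coefficient of variation of Rnf43 was 12.2% in Vil-Cre and 34.8% in Vil-Cre:NDI1 mice.

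Znrf3, the close relative of Rnf43 (chr11:5276324-5444847), had normalized counts of 61.7, 68.9, 63.1, 70.8 and 58.3 in Vil-Cre mice 1 to 5 and 79.4, 60.1, 67.8, 62.7 and 50.5 in Vil-Cre:NDI1 mice 1 to 5. It had the smallest spread of the 10 genes, 12.3% over the 10 mice, and its highest and lowest values were both in Vil-Cre:NDI1 mice. Between genotypes the log2 fold change was -0.022 ± 0.16 (SE), with an interval from -0.37 to 0.32 (exact permutation test, p = 0.833). Axin2, the scaffold of the beta-catenin destruction complex that is widely used to read out Wnt signalling (chr11:108920349-108950783), had normalized counts of 452, 672, 406, 522 and 648 in Vil-Cre mice 1 to 5 and 359.7, 455, 367, 690.4 and 683 in Vil-Cre:NDI1 mice 1 to 5. The Vil-Cre:NDI1 values fell apart into mice 4 and 5, above all Vil-Cre mice, and mice 1, 2 and 3, of which 1 and 3 were below all Vil-Cre mice. Axin2 had a log2 fold change of -0.11 ± 0.22 (SE), with an interval from -0.59 to 0.37 (exact permutation test, p = 0.643). The 2 mice with the highest Axin2 in that group, 4 and 5, had Rnf43 values of 214 and 303, below all Vil-Cre mice.

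Of the stem and progenitor genes, Sox9, a transcription factor of the crypt base and of Paneth cells (chr11:112782224-112787760), had normalized counts of 271, 279, 256, 187 and 286 in Vil-Cre mice 1 to 5 and 194, 181, 183, 246 and 258 in Vil-Cre:NDI1 mice 1 to 5. Vil-Cre mice 1, 2 and 5 were above all 5 Vil-Cre:NDI1 mice, Vil-Cre mouse 3 was above 4 of the 5, and Vil-Cre mouse 4 lay with the low Vil-Cre:NDI1 mice. The means were 256 ± 39.9 in Vil-Cre and 212 ± 36.7 in Vil-Cre:NDI1 mice (SD, n = 5 each), and the log2 fold change was -0.27 ± 0.15 (SE), with an interval from -0.60 to 0.065 (exact permutation test, p = 0.0794). Without Vil-Cre mouse 4 the exact permutation p was 0.0397, and with any other mouse left out it lay between 0.0635 and 0.222. Prom1, the membrane glycoprotein CD133 (chr5:43993620-44102032), had normalized counts of 324, 426, 461, 532 and 447 in Vil-Cre mice 1 to 5 and 412, 364, 439.6, 622 and 320.5 in Vil-Cre:NDI1 mice 1 to 5. Vil-Cre:NDI1 mouse 4 was the highest and mouse 5 the lowest of the 10, and the log2 fold change was -0.041 ± 0.18 (SE), with an interval from -0.43 to 0.35 (exact permutation test, p = 0.833). Msi1, an RNA-binding protein of progenitor cells (chr5:115429599-115455698), had normalized counts of 89.7, 90.8, 88.2, 44.5 and 126 in Vil-Cre mice 1 to 5 and 80.4, 80.2, 92.0, 97.9 and 45.8 in Vil-Cre:NDI1 mice 1 to 5. A single mouse in each group was near 45, Vil-Cre 4 and Vil-Cre:NDI1 5, and the log2 fold change was -0.12 ± 0.28 (SE), with an interval from -0.74 to 0.50 (exact permutation test, p = 0.667). Exons of Axin2 and Prom1 share 209 and 424 bases with antisense genes, Gm11670 and Gm16401, with mean values of 1.58 and 4.32, and reads from the shared stretches cannot be told apart because the strand setting was not given in the sources used here.

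Per kilobase of exons, the 10 genes covered a wide range of levels over the 10 mice. Olfm4 was first, at 372 ± 135 normalized counts per kilobase (SD, n = 10), followed by Axin2 at 95.4 ± 24.7. Smoc2 at 72.3 ± 9.82, Prom1 at 60.6 ± 12.8, Rnf43 at 59.3 ± 17.5 and Sox9 at 56.6 ± 10.3 came next on the same per-kilobase scale. In Vil-Cre mice alone Rnf43, at 70.9 ± 8.67, was above Smoc2, at 69.8 ± 9.01, and Prom1, at 61.0 ± 10.5, and in Vil-Cre:NDI1 mice it was at 47.8 ± 16.6. Prom1 was above Rnf43 in 2 of the 10 mice. Ascl2 at 20.3 ± 6.55, Msi1 at 14.4 ± 4.14, Znrf3 at 8.15 ± 0.999 and Lgr5 at 7.60 ± 3.08 were the lowest. Of the 9 steps in this order, the ranges over mice were separate at only 2. Olfm4 was 3.76-fold above Axin2 and Sox9 was 2.92-fold above Ascl2, each in 10 of 10 mice, and the other neighbours overlapped. With the longest transcript as the length in place of the exon union, Smoc2 passed Axin2, Msi1 passed Ascl2, and Lgr5 at 16.3 per kilobase passed Znrf3 at 10.2. Lgr5 and Znrf3 were the least abundant of the 10 per kilobase of exons, where 14.0% and 15.1% of the genes tested were below them.

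**Figure D3:**
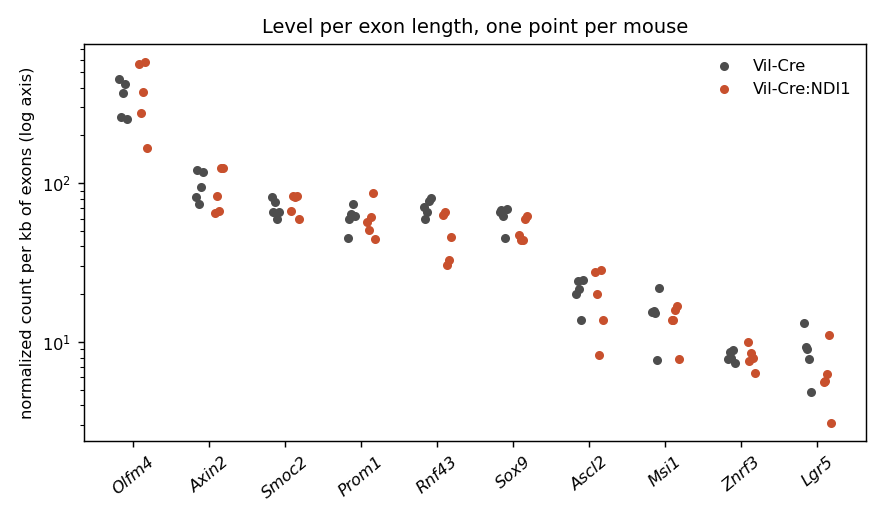
Normalized counts per kilobase of exons (log axis) of the 10 genes in order of their mean, with 1 point per mouse, grey for Vil-Cre and orange for Vil-Cre:NDI1. Olfm4 at a mean of 372 stands apart from Axin2 at 95.4, and the 6 genes from Olfm4 to Sox9 stand apart from the 4 from Ascl2 to Lgr5.

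The 10 genes did not move as a block from mouse to mouse. Vil-Cre:NDI1 mouse 4 had the highest value of 5 genes, Ascl2, Olfm4, Smoc2, Axin2 and Prom1, and a median log2 deviation from the 10-mouse mean of 0.36, yet its Rnf43 deviation was -0.79. Vil-Cre:NDI1 mouse 5 had the lowest value of 4 genes, Lgr5, Olfm4, Znrf3 and Prom1, and a median deviation of -0.37, while Axin2 and Sox9 were above the mean in it. Vil-Cre mouse 5 had the highest Rnf43, Sox9 and Msi1, and the lowest Lgr5 and Olfm4 of its group. The summed enterocyte markers were highest in Vil-Cre:NDI1 mouse 5, at 735918, and lowest in Vil-Cre mouse 5, at 378714. The summed Paneth cell markers were highest in Vil-Cre:NDI1 mouse 4, at 181407. The part of these differences in cell type markers in the member values was not tested. Without the mice of lowest and highest enterocyte sum, limma still called 0 of the 10, and the median log2 fold change of the 10 genes was -0.00057. That median was already -0.016 without Vil-Cre:NDI1 mouse 5 alone, the mouse with the lowest value of 4 of the genes.

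**Figure D4:**
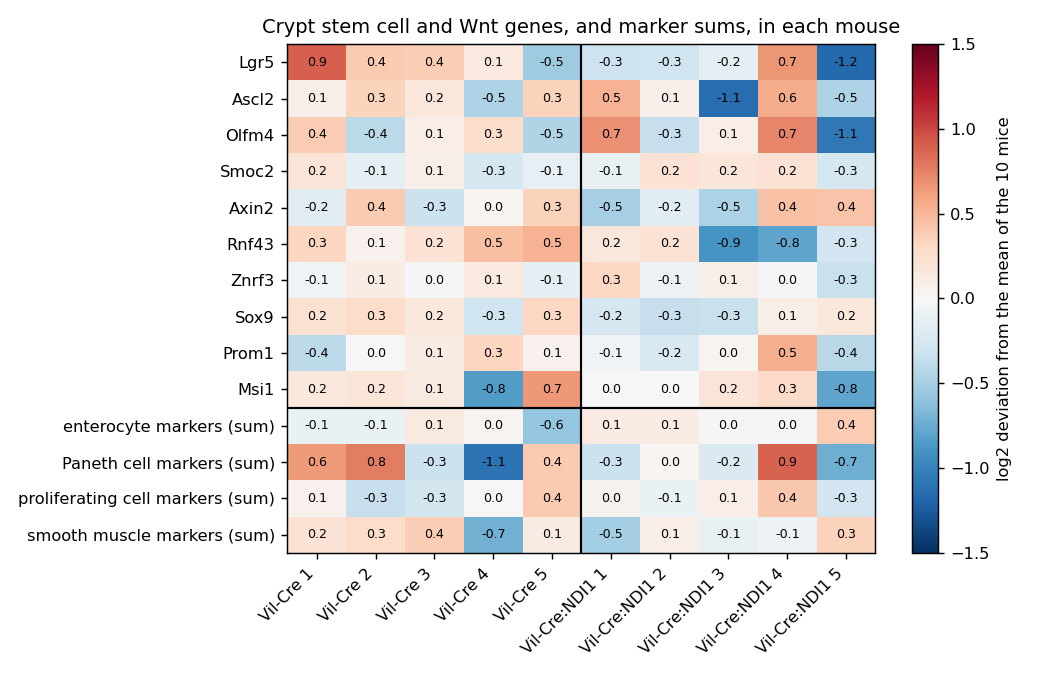
log2 deviation of each gene, and of 4 summed cell type marker lists, from its mean over the 10 mice, with mice in columns, a line between the genotypes, red above and blue below the mean. Vil-Cre:NDI1 mouse 4 is red for most genes save Rnf43 at -0.79 and Znrf3 near 0, and Vil-Cre:NDI1 mouse 5 is blue for most save Axin2 and Sox9.

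Across the 10 mice the 45 pairs of genes had a median Pearson r of 0.17, and r was above 0 in 30 pairs. In permutation tests 2 pairs had an unadjusted p under 0.05 and 0 after Benjamini-Hochberg adjustment over the 45, the smallest adjusted permutation p being 0.747. Lgr5 and Olfm4 had r = 0.67 (permutation p = 0.0332) and Spearman's rho = 0.56 (permutation p = 0.0971). Without Vil-Cre mouse 1 and Vil-Cre:NDI1 mouse 5, the mice farthest from the median of Lgr5, r was 0.35, and it was 0.41 without Vil-Cre:NDI1 mouse 5 alone, so the size of r depended on the mice at the ends of the Lgr5 range. Olfm4 and Znrf3 had r = 0.70 (permutation p = 0.0244) and rho = 0.55 (permutation p = 0.105). Their r was 0.64 without Vil-Cre:NDI1 mice 4 and 5, but 0.45 without Vil-Cre:NDI1 mouse 5 alone, so it too depended on that mouse. With the genotype means taken out, Lgr5 had r = 0.77 with Olfm4 and 0.72 with Smoc2, and the smallest permutation p was 0.0823 adjusted over the 9 relations of Lgr5 and 0.348 adjusted over the 45 pairs. These permutations moved the centred values across both genotypes, not within each, so their p may be too small. The values that follow are again as measured. Lgr5 and Axin2, the receptor and the Wnt readout, had r = -0.10 (permutation p = 0.775) and rho = 0.055 (permutation p = 0.892). Among all 14301 genes, those whose values followed Lgr5 most closely over the 10 mice were Atl3 (r = 0.97), Tcf12 (r = 0.91) and Ap4e1 (r = 0.89), and those closest to Axin2 were Pik3c2b (r = 0.97), Hpca (r = 0.96) and Csf2ra (r = 0.95). These 6 are the top of a search over all genes and carry no p.

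Other genes were read in 11 lists, of the Wnt pathway, of crypt and reserve stem cells, and of Notch, EGF and BMP signals of the niche. Every list gave 0 calls at an adjusted p under 0.05 (limma). Of the 110 genes tested, 4 had lower values in Vil-Cre:NDI1 mice at an unadjusted p under 0.05. They were the Wnt receptor gene Fzd1, Anxa1 of the reserve and regenerative list, and Egfr and Notch2 of the Notch and EGF list. That is 3.64%, against 2.11% of all genes for lower values and 4.24% in either direction. The median log2 fold change kept its sign under all the alternative settings for 4 of the 11 lists, the Wnt ligands, the other crypt base columnar cell genes, the reserve stem cell genes and the BMP genes, and turned under at least 1 for the other 7. Upstream, 9 of 14 Wnt ligands and secretion genes were tested, with a median log2 fold change of -0.17 and 8 of 9 below 0. Wls, the carrier needed to secrete Wnt proteins, had their highest mean normalized count (here and in the lists that follow, not scaled by length), with 171 ± 29.3 normalized counts in Vil-Cre and 149 ± 30.9 in Vil-Cre:NDI1 mice, and Wnt6 had the smallest unadjusted limma p, 0.214. The R-spondin list kept 3 of 6 genes, with a median of 0.044, and Lgr4, the widely expressed relative of Lgr5, had 1067 ± 174 against 1097 ± 219 normalized counts. Rspo1 had a log2 fold change of 0.12 ± 0.39. Of the Wnt receptors 12 of 14 were tested, with a median of -0.0077. Fzd1 was the 1 receptor with an unadjusted limma p under 0.05, at a log2 fold change of -0.30 ± 0.14, and Fzd5, the highest by mean normalized count, had 2055 ± 121 in Vil-Cre and 2146 ± 264 normalized counts in Vil-Cre:NDI1 mice. Of the extracellular Wnt inhibitors 6 of 11 were tested, with a median of 0.13. That median was -0.082 with equal totals. It was -0.24 with no filter and -0.13 with a minimum of 50, settings that also change which genes of the list are tested. Of the 6, Frzb had a log2 fold change of 0.75 ± 0.44 from low values and Dkk3 one of -0.24 ± 0.17.

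Inside the cell, all 15 destruction complex and transducer genes were tested, with a median log2 fold change of -0.0085. Ctnnb1, which codes for beta-catenin, had 8924 ± 1081 normalized counts in Vil-Cre and 9501 ± 738 in Vil-Cre:NDI1 mice, and Csnk1a1, a kinase that primes beta-catenin for destruction, had a log2 fold change of 0.12 ± 0.079. The nuclear effectors, 11 of 12 tested, had a median of 0.0081, with Tle3 at 0.12 ± 0.17 and Bcl9 at -0.22 ± 0.16. The other Wnt targets, 14 of 15 tested, had a median of 0.031. Ccnd2, a cyclin gene and the highest of them by mean normalized count, ranged from 985 to 8285 normalized counts over the 10 mice, with a log2 fold change of 0.85 ± 0.62. Of the 14 targets tested, 8 had a log2 fold change above 0.

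The other crypt base columnar cell genes, 11 of 12 tested, had a median log2 fold change of -0.072, with 8 of 11 below 0. Slc12a2, an ion transporter of the crypt, had 1369 ± 148 normalized counts in Vil-Cre and 1220.5 ± 281 in Vil-Cre:NDI1 mice, and Cdk6 had a log2 fold change of -0.38 ± 0.23. The 8 reserve and regenerative stem cell genes had a median of 0.070. Anxa1, a gene raised in regenerating epithelium, had the smallest unadjusted limma p of that list, with 91.8 ± 22.7 against 54.5 ± 14.9 normalized counts, a log2 fold change of -0.76 ± 0.24 and a limma adjusted p = 0.998, and Krt19 had the highest mean normalized count and a log2 fold change of 0.059 ± 0.19. The 13 Notch and EGF niche genes had a median of -0.044, and 2 of them had lower values at an unadjusted limma p under 0.05, where 2.11% of all genes did. The epidermal growth factor receptor gene Egfr, the lower p of the 2, had 449.8 ± 33.7 against 358 ± 53.4 normalized counts, with a log2 fold change of -0.34 ± 0.11 and a limma adjusted p = 0.998. The other was the receptor gene Notch2, at -0.39 ± 0.14, named after its values were seen, and Dll1, the highest of the list by mean normalized count, was at -0.014 ± 0.15. The 14 BMP niche genes had a median of -0.062, with Bmpr1a at 0.18 ± 0.095.

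Marker lists of other cell types of the gut wall, of proliferating cells and of hepatocytes were read in the same libraries. In these lists 0 genes were called by limma or DESeq2. At an unadjusted limma p under 0.05, Dclk1, Pdgfra, Cdh5, Ttr and Alb had lower values and Kdr higher values in Vil-Cre:NDI1 mice, 6 of the 94 markers tested, or 6.38% against 4.24% of all genes, named here for their values. All 11 enterocyte markers had a log2 fold change above 0, with a median of 0.23, and their summed normalized counts were 378714 to 621413 in Vil-Cre against 557134 to 735918 in Vil-Cre:NDI1 libraries. Of the 10 Paneth cell markers 9 were below 0, with a median of -0.14 and sums of 45662 to 166795 and 58985 to 181407. Proliferation markers had a median of 0.063 and sums of 3510 to 5873 and 3641 to 5892. All 7 goblet cell and all 5 tuft cell markers tested were below 0, with medians of -0.21 and -0.45, and Dclk1 of the tuft cells had 364 ± 100.3 against 168 ± 71.6 normalized counts. The medians were -0.083 for enteroendocrine, -0.16 for fibroblast and telocyte, -0.065 for smooth muscle, 0.033 for enteric neuron and glia, -0.63 for B and plasma, -0.13 for T, -0.12 for endothelial, 0.10 for adipocyte and -1.71 for hepatocyte markers. In Vil-Cre mice the B cell genes Cd79a and Cd79b were at 81.6 ± 131 and 62.1 ± 110 normalized counts, with highest values of 315 and 258. In Vil-Cre:NDI1 mice they were at 22.4 ± 18.4 and 13.0 ± 8.02. The B and plasma median thus leans on genes whose SD in Vil-Cre mice exceeds their mean. The highest markers of their lists by normalized count were the enterocyte apolipoprotein Apoa4, at 48578 to 175027 normalized counts over the mice, the Paneth cell defensin Defa24, at 13275 to 48553, and the goblet cell gene Fcgbp, at 32052 to 41935. Alb, the leading hepatocyte marker, ranged from 0.980 to 763 normalized counts over the mice. The summed hepatocyte markers were 1169, 449 and 810 in Vil-Cre mice 1, 3 and 5. They were 151 and 51.6 in Vil-Cre mice 2 and 4 and 41.2 to 98.6 in Vil-Cre:NDI1 mice, so the hepatocyte median rests on a few Vil-Cre libraries.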

How the data were processed

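Jejunal RNA of 10 mice, grouped by the genotype in the labels, was sequenced single-end. Trimming (trimGalore!), alignment (STAR, to GRCm38 plus NDI1), gene quantification (Salmon) and scaling by size factors (DESeq2) were done by the authors, so the deposited signal is a normalized count per gene. The smallest value above 0 was taken as 1 read and refitted over all values of the library. Dividing by it turned 100% of the values above 0 into whole reads (tolerance 0.001 reads, wider in proportion for high counts). For Vil-Cre 3 and 4 the value of 1 read was near 1, at 1.00184 and 1.01109, and the fits on 8 libraries left these libraries out. Their higher values were still whole multiples of it, such as Olfm4 at 1102.03 for 1100 reads in Vil-Cre 3 and 1242.63 for 1229 reads in Vil-Cre 4. Mean chi-square per gene between replicates was 13.2 or more, so no library was a duplicate.

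limma 3.58.1 (R 4.3.3) was fitted to log2(value + 1) of genes with at least 10 in at least 5 mice, moderated with a trended prior, and p-values were adjusted by Benjamini-Hochberg at 0.05. Adding 1 can shrink the fold changes of low genes, but the member median was -0.115 with 1 added and -0.116 with 0.1 added. For Ascl2, the member of lowest mean count, the log2 fold change was -0.18 by limma, -0.079 by DESeq2 and -0.091 by edgeR. The recovered reads were also tested with DESeq2 1.42.0 (local dispersion, Wald) and edgeR 4.0.16 (quasi-likelihood). Exact permutation tests used all 252 assignments of mice, two-sided, and correlations 100000 permutations. On simulated counts, drawn for each gene separately, only the size of the fitted fold changes was checked. Rates of missed or false calls are not given here. Loci and lengths come from GENCODE M21, which held 45143 of the 45707 identifiers, and promoters from RefSeq. The members and lists were chosen with earlier results of these data known. Named genes are the 10 members, NDI1, in each pathway list the gene with the smallest p and the one with the highest mean, the leading gene of the marker lists that the text describes, and the 3 genes most like Lgr5 and Axin2 by r. Notch2, Cd79a, Cd79b and the markers with an unadjusted p under 0.05 were named after their values were seen. Alternatives were other pseudocounts, filters, normalizations, tests and lengths, the replicate block, and each mouse left out with the same genes tested.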

Additional observations from a re-analysis of the deposited data

How the results depend on the processing

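No setting called any of the 10 genes. The count of all genes called was 1, and 2 with a minimum of 50, 2 with array weights, 24 with DESeq2 and 1 to 3 with a mouse left out (2 without Vil-Cre:NDI1 mouse 1, 3 without mouse 5). Settings chosen after seeing the data gave 257 with DESeq2 on the 8 libraries without Vil-Cre 3 and 4, and 2 without the mice of lowest and highest enterocyte sum, and the cause was not tested. The labels do not say whether mice of the same replicate number share a litter or cage. Same-numbered mice correlated at -0.12 to 0.14 after removal of the group means, which cannot settle it. A fit with the replicate block called 1 gene and 0 of the 10.

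Olfm4 was -0.017 with equal totals. Znrf3 was 0.045 with quantile normalization, 0.00027 with array weights, 0.032 (DESeq2) and 0.011 (edgeR) on 8 libraries and 0.023 without the enterocyte extremes. Prom1 was 0.010 with array weights, 0.11 and 0.097 with the same count tests, and 0.068 without the extremes, where Msi1 was 0.21. With a mouse left out, log2 fold changes ran from -0.34 to 0.081 for Ascl2, -0.13 to 0.32 for Olfm4, -0.23 to 8.31e-05 for Axin2, -0.10 to 0.059 for Znrf3, -0.18 to 0.057 for Prom1 and -0.34 to 0.064 for Msi1. The r of Lgr5 then ran from -0.31 to 0.23 with Axin2, -0.18 to 0.29 with Rnf43, -0.12 to 0.64 with Znrf3 and -0.095 to 0.59 with Msi1, and centring on genotype gave -0.43 with Rnf43 and -0.062 with Sox9. Exact tests under 0.05 numbered 0 or 1 of 10 with a mouse left out. With 5 mice a group and counts as low as 14 reads, the 95% intervals of Lgr5 and Ascl2 reach folds of 0.425 and 0.528 on the low side.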
